A study of Mus musculus with 48 samples.

Results

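CD11B+ cells of the mouse cortex, most of which are microglia, were compared between postnatal day 5 (P5) and P10 in pups that had received PBS only. The 12 samples were chosen by their labels alone, 6 at P5 and 6 at P10, out of 48 arrays in the series, and every probe besides the controls was used. All pups were male. The labels give the strain as swiss, whereas the methods give OF1. PBS was injected into the peritoneum from P1 to P4 and a last time at P5, in pups of both ages, so that no age stands for an untouched animal. By the methods, P5 pups were killed within hours of an injection, and P10 pups days after their last one. Age and time since the injection therefore cannot be told apart in any result below. In the sort, O4+ cells (late oligodendrocyte progenitors and immature oligodendrocytes) were taken out first with magnetic beads, and CD11B+ cells were drawn from what was left. Cortices of several pups were pooled for a sample according to the methods. CD11B is the protein of Itgam and is also carried by border-associated macrophages, monocytes, neutrophils and natural killer cells, so the sort does not by itself isolate microglia. The description of each P10 sample names P5, and P10 was taken from the title, the source and the stage, which do not differ from each other. The other arm of the study received IL1B, an inflammatory cytokine, in the same scheme. Its 12 CD11B+ arrays and the 12 PBS arrays of O4+ cells serve below to ask whether an age change differs with IL1B or between the sorted cells.

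Microglia are the resident macrophages of the brain. They descend from the yolk sac, depend on signals through the receptor CSF1R for survival and on TGFB for their identity, and survey the tissue with receptors for nucleotides, lipids and cell debris. In the newborn brain they multiply, and part of them, mostly in the developing white matter, carry a set of genes for phagocytosis, lipid handling and growth factors that is seen again in disease-associated microglia. As the cortex matures they take on the expression profile of the adult, in which P2ry12 and Tmem119 are high.

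Cy3-labelled RNA of each sample was read on 1 array of 55681 probes. On the P5 arrays 53.9% to 59.8% of probes (median 57.5%) exceeded background clearly by the feature extraction software's mark, and on the P10 arrays 55.4% to 58.6% (median 56.9%). Of all probes, 27457 bore this mark (well above background) on each of the 12 arrays. Signals are given as log2 of the background-subtracted intensity after quantile normalization, and since probes differ in how brightly they report, levels are compared between arrays and never between genes. A probe was called when the group medians differed by over 1.5-fold and limma gave an adjusted p under 0.05. The samples are labelled as separate replicates, and the p-values measure the spread between these samples.

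A pair of arrays stood apart from the rest of their groups. P5 replicate 5 correlated with the other P5 arrays at 0.975 to 0.980, against 0.989 to 0.994 among those 5, and it was alone of them on its slide and its scan day. Its list of astrocyte markers had a mean of 10.63, against 8.29 to 9.07 on the other P5 arrays, and its list of fibroblast, ependymal and choroid plexus markers had a mean of 10.18, against 7.16 to 8.19. P10 replicate 6 correlated with the other P10 arrays at 0.985 to 0.988, against 0.988 to 0.990 among those 5. Its neutrophil and monocyte list had a mean of 11.20, against 9.07 to 9.41, and its MHC class I list a mean of 12.96, against 11.89 to 12.12. Where the call of a named gene changes without these 2 arrays, or a list's count of called genes moves by over 1.5 times, both values are given, an alternative chosen after seeing the data.

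From P5 to P10, 2576 probes were called higher and 2025 lower (limma, 6 arrays against 6), which is 4.63% and 3.64% of all probes and 8.26% together. Among the 27457 probes with the background mark on each array the shares were 6.77% and 5.26%. They belong to 1272 and 1242 genes. On 4256 probes (7.64%) every P10 array lay above every P5 array, and on 3117 (5.6%) every P10 array lay below. Shares of all probes are printed beside counts of list members below. Most list members had the background mark on each array, so that 6.77% and 5.26% are the closer shares for called members. The median change over all probes was 0. Without both arrays that stood apart, 2996 probes were higher and 2682 lower, and 4188 of the 4601 calls were shared in the same direction. No slide and no scan day holds arrays of both ages, so that age and batch cannot be told apart. With scan day as a random block 1364 probes were higher and 898 lower, and with another background correction (normexp) 1155 and 963.

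Microglial markers set the CD11B+ arrays apart from the O4+ arrays at both ages. On 34 of the 39 genes listed for microglia identity at P5 and on 35 at P10 every CD11B+ array lay above every O4+ array, and the list mean was 14.12 to 14.27 against 11.57 to 12.02 at P5 and 14.62 to 14.85 against 10.86 to 11.48 at P10. Border-associated macrophage genes did likewise (24 of 26 at each age), while on 19 and 20 of 21 myelin genes every CD11B+ array lay below. These values were normalized over all 48 arrays. Detection alone does not single out the cell type, since 38 of the 39 identity genes and all 10 astrocyte genes were well above background on each of the 12 arrays. Itgam, the gene of the sorted antigen, had a log2 signal of 13.69 to 13.96 (median 13.87) at P5 and of 14.42 to 14.94 (median 14.79) at P10. It rose by 0.89 (SE 0.09, limma adjusted p = 4.70e-05), and its 3 probes were all called higher, by 0.89 to 1.00.

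Part of the microglia identity genes rose between P5 and P10, and none fell. Of the 39 listed genes 15 rose and 0 fell, where 4.63% of all probes were called higher, with a median change of 0.45 (log2) against 0 over all probes, and on 25 of them every P10 array lay above every P5 array (7.64% of all probes). Tmem119, a membrane protein found on microglia and on few other brain cells, had a log2 signal of 14.69 to 14.94 (median 14.92) at P5 and 16.22 to 16.59 (median 16.43) at P10. The groups were far from overlapping, and the signal rose 2.86-fold (log2 change 1.57, SE 0.08, limma adjusted p = 1.54e-06). Selplg, the P-selectin ligand, went from 13.90 to 14.31 (median 14.07) to 15.74 to 16.09 (median 15.91), a rise of 3.57-fold (log2 change 1.85, SE 0.08, adjusted p = 1.05e-06). P2ry12, the ADP receptor with which microglia steer their processes, was already bright at P5, at 15.44 to 15.82, and rose 1.54-fold to 15.88 to 16.58 (log2 change 0.64, SE 0.12, adjusted p = 0.00206). Sall1, a transcription factor that keeps microglia from other macrophage fates, rose 1.65-fold. In each of these genes every P10 array exceeded every P5 array.

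The other defining genes moved less. Cx3cr1, the fractalkine receptor, was higher on every P10 array but only 1.31-fold (log2 change 0.39, limma adjusted p = 4.73e-05), and so was Aif1, an actin-bundling protein, 1.16-fold, so both stayed under the fold threshold. The receptor gene Csf1r overlapped between the ages by its brightest probe, at 17.97 to 18.25 and 18.07 to 18.47 (log2 change 0.20, SE 0.07, adjusted p = 0.0592). The 3 probes of Csf1r had changes of 0.20 to 0.47 and the 2 of Cx3cr1 of 0.39 and 0.50, and none was called. With scaling to the 75th percentile of each array instead of quantile normalization, 11 of the 39 genes were called higher, and without both arrays that stood apart 16.

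**Figure D1:**
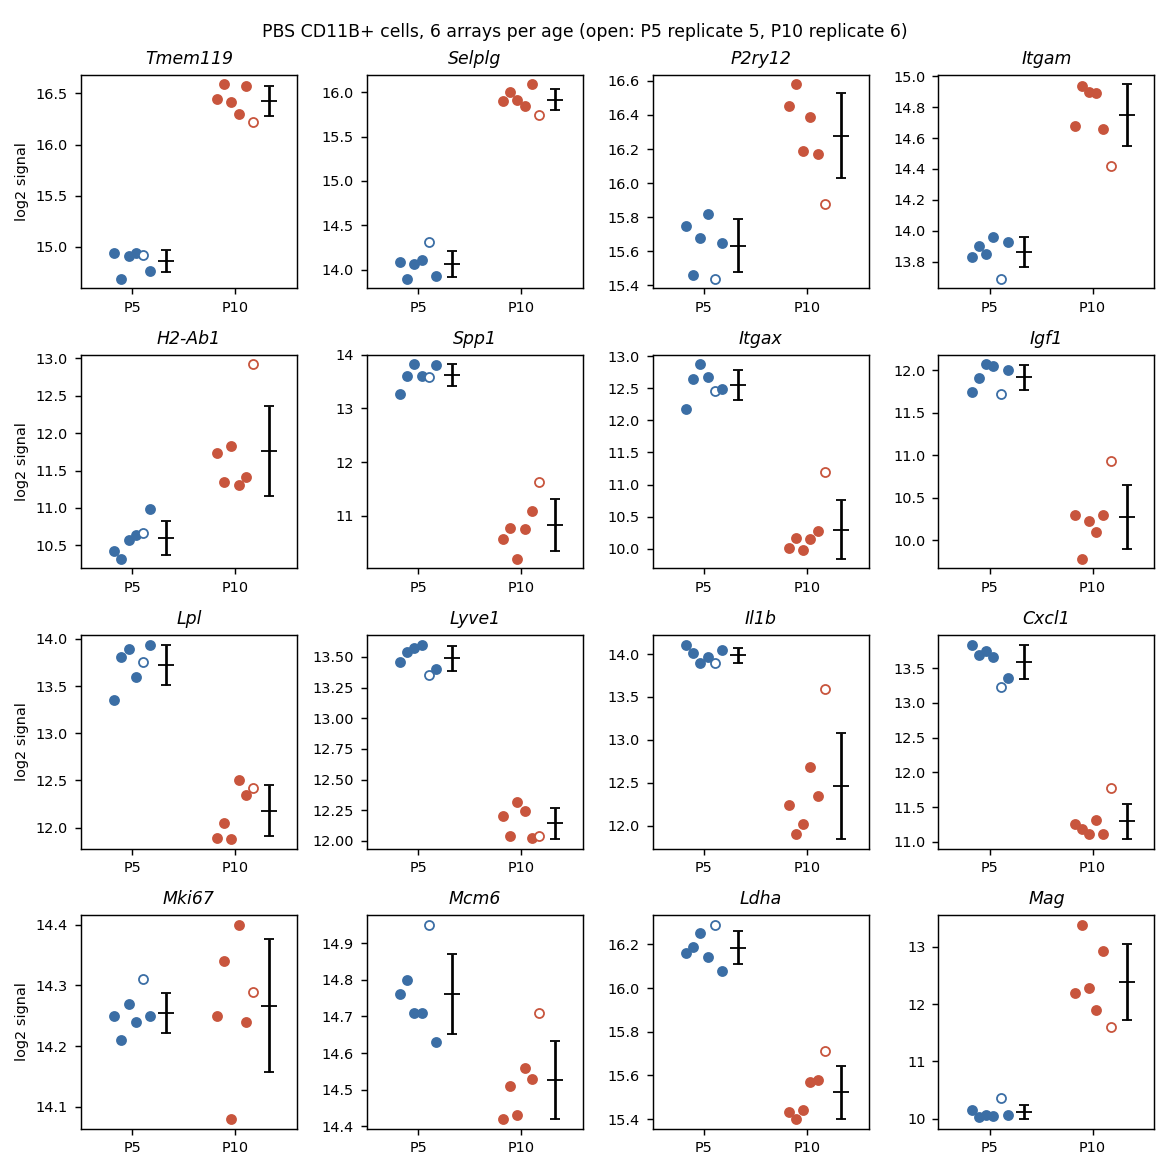
Log2 signal of 16 genes on each of the 12 PBS CD11B+ arrays, P5 on the left and P10 on the right of each panel. Points are arrays, open points are P5 replicate 5 and P10 replicate 6, and the bar is the mean ± SD of the 6 arrays of an age. All P10 arrays lie above all P5 arrays for Tmem119, Selplg, P2ry12, Itgam, H2-Ab1 and Mag and below them for Spp1, Itgax, Igf1, Lpl, Lyve1, Il1b, Cxcl1 and Ldha, whereas the ages overlap for Mki67 and Mcm6.

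Most transcription factors of the microglial lineage changed little. Of 36 listed genes 6 rose and 3 fell (4.63% and 3.64% of all probes), with a median change of 0.16. On 10 every P10 array lay above every P5 array and on 3 below (7.64% and 5.6% of all probes). With 75th percentile scaling 2 rose. Bhlhe41, a repressor known to hold tissue macrophages in their resident state, rose 1.88-fold, from 8.30 to 8.71 at P5 to 9.24 to 9.73 at P10 (log2 change 0.93, SE 0.10, limma adjusted p = 6.70e-05). Mef2a, named among the factors that act on microglial enhancers, rose 1.56-fold by 1 of its 3 probes, which disagree, with changes from -0.53 to 0.66, and Etv5, an ETS factor, 1.62-fold. Mitf and Tfec, related factors that drive lysosomal and melanocyte or macrophage genes, fell by 0.78 and 0.73 on the log2 scale. The hypoxia- and cytokine-responsive repressor Bhlhe40, the paralog of Bhlhe41, fell by 0.62, with some overlap between the ages. Spi1, which encodes PU.1, the master factor of the myeloid lineage, had a change of -0.25 (adjusted p = 0.0213, 1.20-fold), Irf8 of 0.18 and Mef2c of 0.04, none of them past the threshold.

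Among 24 genes of CSF1R and TGFB signalling 4 rose and 3 fell (4.63% and 3.64% of all probes), with a median change of 0.18. With 75th percentile scaling 2 rose. The ligand Csf1 had a log2 signal of 13.99 to 14.20 (median 14.09) at P5 and 12.57 to 13.21 (median 12.96) at P10 and fell by 1.15 (SE 0.10, limma adjusted p = 1.83e-05), with no overlap. Of its 4 probes 3 were called lower, and the other went the opposite way, with a change of 0.38 that was not called. Pmepa1, a target and feedback inhibitor of TGFB signalling, rose 2.72-fold, from 11.81 to 12.13 to 12.50 to 13.56. Eng, a TGFB co-receptor, rose 1.77-fold, and Itgb5, an integrin chain that can release active TGFB, 1.55-fold. The receptor gene Tgfbr2 was higher on every P10 array without passing the fold threshold (1.28-fold). For Tgfbr1 3 of 4 probes were called higher, with changes of 0.61 to 1.08 over the 4, and the brightest (1.49-fold) passed the threshold without both arrays that stood apart. Lrrc32, which anchors latent TGFB to the cell surface, fell by 1.12 and Tgfb2 by 0.91 on the log2 scale, whereas the ligand Tgfb1 had a change of 0.16 (adjusted p = 0.0873).

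Receptors with which microglia sense their surroundings split evenly, with 10 of 57 higher and 10 lower (4.63% and 3.64% of all probes). Their median change was 0.11, though with 75th percentile scaling 6 were higher and 11 lower. Fcgr1, the high-affinity receptor for immunoglobulin G, rose 2.28-fold, from 11.51 to 12.60 (median 12.25) to 13.22 to 13.66 (median 13.45), with no overlap (log2 change 1.25, SE 0.17, limma adjusted p = 3.00e-04). Tlr3, a sensor of double-stranded RNA, rose 2.00-fold, and P2rx7, the ATP-gated channel, 1.51-fold. In the other direction Clec7a (dectin-1, a receptor for fungal glucan) fell by 1.51, the chemokine receptor gene Cxcr4 by 1.42 and Cd36, a scavenger receptor for lipids, by 1.29 on the log2 scale, each with no overlap. Tlr2, a sensor of bacterial lipoproteins, fell by 0.63, while Tlr4, the endotoxin receptor, had a change of 0.29 that stayed under the fold threshold. Its co-receptor Cd14 and P2rx4, another ATP-gated channel, were 1.49-fold lower and were called without both arrays that stood apart. Of 24 ion channel genes 3 rose and 2 fell (4.63% and 3.64% of all probes), with a median change of 0.32. With 75th percentile scaling or without P5 replicate 2 1 rose. Kcnk6, a potassium channel, rose from 13.64 to 13.75 to 14.33 to 14.54 (log2 change 0.72, SE 0.05, adjusted p = 4.49e-06), and Kcnj2, the inward rectifier, fell by 1.18. The probe of Kcnj2 was not well above background on every array.

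The list that fell most completely was that of white-matter and disease-associated microglia. Of its 46 genes 34 fell and 0 rose, where 3.64% of all probes were called lower, and the median change was -0.96. On 33 of the 46 every P10 array lay below every P5 array (5.6% of all probes). Spp1 (osteopontin), a secreted phosphoprotein, had a log2 signal of 13.26 to 13.82 (median 13.61) at P5 and 10.20 to 11.63 (median 10.77) at P10, a fall of 7.18-fold (log2 change -2.78, SE 0.21, limma adjusted p = 9.55e-06). Itgax, the integrin chain CD11c, was at 12.18 to 12.87 (median 12.56) at P5 and 9.98 to 11.20 (median 10.16) at P10, and fell 5.31-fold (log2 change -2.25, SE 0.20, adjusted p = 2.43e-05). The growth factor Igf1 went from 11.72 to 12.07 (median 11.96) to 9.78 to 10.93 (median 10.26), and all 5 of its probes were called lower (log2 change of the brightest -1.65, SE 0.16, adjusted p = 3.87e-05). None of these 3 genes overlapped between the ages. Hpse (heparanase, which cuts heparan sulfate in the matrix) fell by 2.33, Gpnmb, a lysosomal and cell surface glycoprotein, by 1.54, and the cystatin gene Cst7 by 0.96. Apoe, the apolipoprotein of brain cholesterol transport, was lower on every P10 array but by 1.28-fold only (log2 change -0.36, adjusted p = 0.000422). Without both arrays that stood apart 33 of the 46 fell, and with slide as a random block 33.

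Since these genes moved together, the 250 bases before their start sites were read from RefSeq promoter windows (build GRCm38.p6), and the windows of Itgax and Igf1 are shown because both hold the AP-1 motif TGANTCA, in capitals, close to the start.
Itgax, chr7:128129300-128129549, + strand: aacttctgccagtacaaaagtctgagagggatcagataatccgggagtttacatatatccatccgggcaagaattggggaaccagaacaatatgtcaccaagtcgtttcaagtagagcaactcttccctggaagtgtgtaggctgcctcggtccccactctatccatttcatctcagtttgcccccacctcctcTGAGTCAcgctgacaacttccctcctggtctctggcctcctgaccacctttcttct
Igf1, chr10:87860861-87861110, + strand: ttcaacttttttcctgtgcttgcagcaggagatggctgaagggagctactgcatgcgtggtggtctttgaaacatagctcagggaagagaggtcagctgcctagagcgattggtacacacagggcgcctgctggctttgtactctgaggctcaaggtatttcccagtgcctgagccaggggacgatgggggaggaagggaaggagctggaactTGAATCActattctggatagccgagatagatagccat
The match begins 56 bases before the start of Itgax and 37 before that of Igf1. In windows of 300 bases (250 before and 50 from the start on), TGANTCA stood in 6 of the 25 genes of this list that fell and had a window, among them Gpnmb and Cst7, against 7.93% of 27025 promoters. It stood in 0 of the 10 microglia identity genes that rose and had a window. The purine-rich ETS motifs GAGGAAG and AGGAAGT, which share letters and can overlap, stood in 7 and 2 of the 25 and in 4 and 3 of the 10, against 13.5% and 9.57% of all promoters. The E-box CACGTG, which holds ACGTG and lies within TCACGTG, stood in 2 of the 25 and 1 of the 10 (7.24% of all), TCACGTG in 1 and 1 (3.84%) and ACGTG in 6 and 1 (19.7%). CAGACA was found in 5 and 3 (21% of all), the TATA box TATAAA in 5 and 3 (14.2%), TGACGTCA in 1 and 0 (1.88%) and the core of the interferon-stimulated response element in 1 and 0 (3.49%). Both strands were searched for all 12 motifs, and a match describes letters in a window, not a bound site.

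Genes of lipid handling changed in both directions. Of 44 genes of cholesterol and lipid handling 10 fell and 5 rose (3.64% and 4.63% of all probes), with a median change of -0.01. With 75th percentile scaling or scan day as a random block 3 rose. Without any 1 of P5 replicates 1, 2 and 4 and P10 replicates 1, 2 and 6, 3 rose as well. Lpl, the lipase that frees fatty acids from lipoproteins, had a log2 signal of 13.35 to 13.93 (median 13.79) at P5 and 11.88 to 12.50 (median 12.19) at P10, and fell 3.00-fold. The fatty acid binding protein genes Fabp5 and Fabp3 fell 3.97-fold and 3.83-fold, and Plin2, which coats lipid droplets, went from 14.75 to 15.01 to 12.93 to 13.56 (log2 change -1.71, SE 0.10, limma adjusted p = 2.16e-06). The cholesterol exporters Abca1 and Abcg1 fell by 0.85 and 1.05 on the log2 scale. Insig1, which holds back sterol synthesis, rose 1.62-fold, and Lpcat2, an enzyme of phospholipid remodelling, 1.81-fold, both with no overlap. Hmgcs1, the synthase at the head of the sterol pathway, overlapped between the ages (log2 change 0.25, adjusted p = 0.268).

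Of 54 genes of phagocytosis and the lysosome 3 rose and 7 fell (4.63% and 3.64% of all probes), with a median change of -0.12. With 75th percentile scaling 1 was higher, and with scan day as a random block 4 were lower. Axl, a receptor for dying cells, fell by 1.02 (SE 0.22, limma adjusted p = 0.00666) from 10.40 to 10.84 to 9.14 to 10.68, an overlap made by P10 replicate 6 alone, whereas the related receptor gene Mertk was higher on every P10 array but under the fold threshold (1.33-fold, adjusted p = 0.000333). Atp6v0d2, a proton pump subunit, fell by 1.25, and Elmo1, an adaptor of engulfment, rose 2.03-fold. The cathepsin gene Ctsf rose 1.52-fold, and the abundant lysosomal genes Cd68 (log2 change -0.11), Lamp1 (-0.15), Lamp2 (0.13) and Ctsd (-0.23) were not called.

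Genes of border-associated macrophages, which live in the meninges and around vessels, fell in part of the list. Of 26 genes 15 fell and 0 rose (median change -0.65), where 3.64% of all probes were called lower, and on 14 every P10 array lay below every P5 array (5.6% of all probes). Lyve1, a hyaluronan receptor, had a log2 signal of 13.35 to 13.60 (median 13.50) at P5 and 12.02 to 12.32 (median 12.12) at P10 and fell 2.60-fold (log2 change -1.34, SE 0.07, limma adjusted p = 1.66e-06). Pf4, a platelet chemokine also made by these macrophages, went from 16.16 to 16.41 to 15.23 to 15.55, and the mannose receptor gene Mrc1 from 15.07 to 15.32 to 14.28 to 14.56. They fell by 0.98 and 0.74, Cd163, the haemoglobin scavenger receptor, by 1.12, and the chemokine gene Ccl24 by 1.23 on the log2 scale. Cbr2, a carbonyl reductase, went against the rest, at 13.67 to 14.35 and 13.97 to 14.50 (log2 change 0.30, adjusted p = 0.109). In bulk samples, a change in the number of cells of a type and a change in RNA per cell cannot be told apart. This holds here and in every list before and after, the microglia identity and the white-matter and disease-associated lists among them.

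Part of the inflammatory mediators fell. Of 50 cytokine and chemokine genes 17 fell and 2 rose (3.64% and 4.63% of all probes), with a median change of -0.41, and with scan day as a random block 11 fell and 1 rose. Cxcl1, a chemokine for neutrophils, had a log2 signal of 13.23 to 13.84 (median 13.68) at P5 and 11.11 to 11.78 (median 11.22) at P10 and fell 5.47-fold (log2 change -2.29, SE 0.14, limma adjusted p = 2.97e-06). Its neighbour Cxcl2 was at 12.62 to 13.23 and 10.71 to 11.03, a fall of 4.65-fold (log2 change -2.13, SE 0.12, adjusted p = 2.16e-06). Il10, an anti-inflammatory cytokine, fell 4.97-fold, from 8.21 to 8.78 (median 8.61) to 5.80 to 7.07 (median 6.30). Il1b was at 13.89 to 14.11 (median 13.98) at P5 and 11.90 to 13.59 (median 12.30) at P10, and it fell 3.22-fold (log2 change -1.52, SE 0.24, adjusted p = 0.000878). The ages did not overlap in any of these 4 genes. The chemokine genes Ccl2, Ccl3 and Ccl4 fell 1.69-fold, 2.00-fold and 1.51-fold, and Cxcl10, a chemokine induced by interferon, 1.71-fold. Tnf was 1.45-fold lower with overlap (adjusted p = 0.0226) and was called without both arrays that stood apart. In contrast Socs3, a feedback inhibitor of cytokine receptors, rose 2.77-fold, from 13.07 to 13.53 to 14.46 to 14.77 (log2 change 1.43, SE 0.08, adjusted p = 2.16e-06). The 2 genes that rose were Socs3 and Retnla, which is described below, and without P10 replicate 5 1 rose.

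The windows before Cxcl1 and Cxcl2, which lie close together on chromosome 5 in the same orientation, are shown because each holds the NF-kappaB motif (3 G, any 2 bases, 3 T and then 2 C) a pair of times near the start, in capitals.
Cxcl1, chr5:90890995-90891244, + strand: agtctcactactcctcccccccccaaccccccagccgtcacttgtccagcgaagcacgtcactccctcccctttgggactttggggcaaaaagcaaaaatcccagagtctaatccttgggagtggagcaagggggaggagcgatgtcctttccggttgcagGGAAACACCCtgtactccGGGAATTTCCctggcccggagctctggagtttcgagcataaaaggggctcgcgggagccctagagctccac
Cxcl2, chr5:90903649-90903898, + strand: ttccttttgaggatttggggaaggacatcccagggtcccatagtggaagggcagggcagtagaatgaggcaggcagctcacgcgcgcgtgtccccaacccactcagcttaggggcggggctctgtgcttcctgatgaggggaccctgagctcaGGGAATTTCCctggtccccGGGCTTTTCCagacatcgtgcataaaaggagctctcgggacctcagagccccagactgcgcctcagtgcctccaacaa
In Cxcl1 the matches begin 89 and 71 bases before the start, and in Cxcl2 97 and 78. This motif stood in 5 of the 12 cytokine and chemokine genes that fell and had a window, against 1.62% of all promoters, in 3 of the 25 white-matter and disease-associated genes and in 0 of the 10 identity genes. TGANTCA stood in 6 of the 12, among them Cxcl10 and Igf1. The cytokine list and the white-matter and disease-associated list share genes. Ccl9 and Csf1 count in both for the NF-kappaB motif, and Ccl9 and Igf1 in both for TGANTCA. The counts for the others were 3 for CCAAT, 1 for CACGTG, 1 for TCACGTG, 2 for GAGGAAG, 0 for AGGAAGT, 3 for CAGACA, 1 for the interferon-stimulated response element, 2 for TATAAA, 0 for TGACGTCA and 2 for ACGTG.

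Interferon genes did not move as a group. Of 49 genes of the type I interferon response 6 fell and 3 rose (3.64% and 4.63% of all probes), with a median change of -0.10. Without both arrays that stood apart 11 fell and 2 rose. Without P10 replicate 6 alone 12 fell, and with scan day as a random block 1 fell and 1 rose. Ifnb1, interferon beta itself, had a log2 signal of 8.25 to 9.99 (median 8.78) at P5 and 6.86 to 7.44 (median 6.98) at P10 and fell 3.49-fold (log2 change -1.81, SE 0.26, limma adjusted p = 0.000453), with no overlap. Oasl1 fell by 1.39, Ifi204, a DNA sensor, by 0.91 and Isg15, a ubiquitin-like modifier, by 0.86 on the log2 scale. Mx2, an antiviral GTPase, rose 1.86-fold. Ifit1, Ifit3 and Irf7 overlapped between the ages, with changes of -0.43, -0.33 and -0.19 (adjusted p = 0.308, 0.547 and 0.768). Of 25 complement genes 6 fell and 1 rose (3.64% and 4.63% of all probes), with a median change of -0.07. Without both arrays that stood apart 9 fell and 3 rose. Without any 1 of P5 replicates 1, 3, 4 and 5 and P10 replicates 1, 4 and 6, 2 rose. The receptor genes C5ar1 and C3ar1 fell by 1.27 and 0.91 with no overlap, and the riser was Itgam, a chain of complement receptor 3. The C1q subunits had changes of 0.20 for C1qa, 0.07 for C1qb and -0.07 for C1qc and were not called. C3 was 2.08-fold lower (log2 change -0.69, adjusted p = 0.169) and was called without both arrays that stood apart. P10 replicate 6 was at 11.39 against 9.31 to 9.69 on the other P10 arrays.

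Part of the genes of antigen presentation by MHC class II rose, and those of class I did not change past the threshold. Of 16 class II genes 8 rose and 0 fell (median change 0.78), where 4.63% of all probes were called higher, and on 10 every P10 array lay above every P5 array (7.64% of all probes). With scan day as a random block 4 rose. H2-Ab1, the beta chain of I-A, had a log2 signal of 10.32 to 10.98 (median 10.61) at P5 and 11.31 to 12.92 (median 11.58) at P10 and rose 1.97-fold (log2 change 1.16, SE 0.25, limma adjusted p = 0.00601). Its partner H2-Aa rose 1.98-fold, from 7.47 to 8.03 to 8.28 to 9.97. H2-DMb1, a chain of the chaperone that loads peptides, went from 9.14 to 10.02 (median 9.76) to 10.75 to 11.73 (median 11.31), a rise of 2.93-fold (log2 change 1.68, SE 0.19, adjusted p = 9.10e-05). H2-DMb2 was well above background on 0 P5 and 6 P10 arrays, and its rise was at least 2.40-fold. H2-Eb1 (log2 change 1.10, SE 0.41, adjusted p = 0.0861) and the invariant chain Cd74 (0.59, adjusted p = 0.207) overlapped between the ages, and Ciita, the master regulator of class II, had a change of -0.26 (adjusted p = 0.567). P10 replicate 6 was the highest P10 array for H2-Ab1, H2-Aa, H2-Eb1 and Cd74, and without both arrays that stood apart H2-Ab1 rose by 0.94, H2-Aa by 0.93 and H2-DMb1 by 1.71. Of 24 class I and immunoproteasome genes 0 were called in either direction (median change 0.19, limma). H2-K1, H2-D1 and B2m had changes of 0.24, 0.43 and 0.21, and of -0.02, 0.15 and 0.09 without both arrays.

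The windows of H2-DMb1 and H2-Aa are shown for the CCAAT motif, which reads ATTGG on the other strand and which is a known part of class II promoters (capitals).
H2-DMb1, chr17:34152941-34153190, + strand: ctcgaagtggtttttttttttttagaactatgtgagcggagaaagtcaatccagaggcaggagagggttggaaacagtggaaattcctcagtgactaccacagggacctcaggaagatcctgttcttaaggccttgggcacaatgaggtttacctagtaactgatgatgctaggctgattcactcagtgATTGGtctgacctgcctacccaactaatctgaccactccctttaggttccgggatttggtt
H2-Aa, chr17:34287824-34288073, - strand: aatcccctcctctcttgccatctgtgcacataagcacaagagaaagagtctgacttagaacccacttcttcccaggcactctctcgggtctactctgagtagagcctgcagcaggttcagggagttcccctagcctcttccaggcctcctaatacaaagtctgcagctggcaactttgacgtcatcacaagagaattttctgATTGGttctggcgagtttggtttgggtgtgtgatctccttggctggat
The match begins 61 bases before the start of H2-DMb1 and 48 before that of H2-Aa. CCAAT stood in 5 of the 7 class II genes that rose and had a window, against 37.9% of all promoters, in 10 of the 25 white-matter and disease-associated genes and in 5 of the 10 identity genes. The other counts among the 7 were 2 for TGANTCA, 1 each for AGGAAGT, TGACGTCA and ACGTG and 0 for the NF-kappaB motif, the interferon-stimulated response element, the ETS motif GAGGAAG and both E-box forms, as well as for CAGACA and for the TATA box.

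Many proliferation genes were slightly lower at P10, most of them by less than the fold threshold. Of 45 DNA replication genes 5 fell and 0 rose, where 3.64% of all probes were called lower, with a median change of -0.29. On 20 every P10 array lay below every P5 array (5.6% of all probes), by less than the fold threshold in most. The list mean was 10.71 to 10.80 on the P5 arrays and 10.35 to 10.61 on the P10 arrays. With normexp background correction 2 fell and with scan day as a random block 3. Uhrf1, which keeps DNA methylation through replication, fell by 0.72 (SE 0.08, limma adjusted p = 0.000115), from 13.09 to 13.35 to 12.29 to 12.72. Orc1, a subunit of the origin recognition complex, fell by 1.00 and Mcm10, which helps start the fork, by 0.58. The helicase subunits Mcm2, Mcm3, Mcm5 and Mcm6 had changes of -0.24, -0.40, -0.32 and -0.24, and Pcna, the sliding clamp, of -0.28. Of 52 mitosis genes 1 fell, Mybl2 (log2 change -0.83), and 0 rose, with a median of -0.19, and 2 fell without P5 replicate 5, without P10 replicate 4 or without both arrays that stood apart. Mki67, whose protein marks cycling cells, was at 14.21 to 14.31 at P5 and 14.08 to 14.40 at P10, with a change of 0.01 (SE 0.05, adjusted p = 0.929). Top2a had a change of -0.15 and Birc5 of -0.20. Among 23 genes of G1 and its inhibitors 3 rose, and these were Gadd45g, a stress-induced growth inhibitor (1.86-fold), the inhibitor gene Cdkn2a (1.77-fold), and the atypical cyclin gene Ccng2 (1.58-fold). Cdkn1a, another inhibitor of cyclin-dependent kinases, was lower by 1.35-fold (adjusted p = 0.0103) and was not called, and without both arrays that stood apart 1 gene of this list fell.

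Glycolysis genes fell in part, and many genes of the respiratory chain were slightly lower, by less than the fold threshold. Of 30 glycolysis genes 7 fell and 0 rose (3.64% and 4.63% of all probes), with a median change of -0.38. Without P5 replicate 5 or both arrays that stood apart 1 rose. On 17 every P10 array lay below every P5 array and on 2 above (5.6% and 7.64% of all probes). Ldha, which makes lactate from pyruvate, was at 16.08 to 16.29 at P5 and 15.40 to 15.71 at P10 and fell by 0.66 (SE 0.06, limma adjusted p = 2.58e-05), with its 3 probes all called lower. Slc16a3, the exporter of lactate, fell 2.39-fold, the phosphofructokinase gene Pfkp 1.94-fold and Egln3, an oxygen-sensing hydroxylase that is itself induced by low oxygen, 5.07-fold, from 7.11 to 7.59 to 4.55 to 5.32. Hk2 and the glucose transporter gene Slc2a1 had changes of 0.06 and -0.25. Of 45 respiratory chain genes 1 fell, the coactivator gene Ppargc1b, which was well above background on only 4 of the 6 P10 arrays, and 0 rose (median -0.15). On 15 of the 45 every P10 array lay below every P5 array and on 0 above (5.6% and 7.64% of all probes). Over the arrays left out 1 at a time 0 to 2 fell, and without P5 replicate 5 or both arrays that stood apart 1 rose.

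Of 39 immediate early and stress genes 6 rose and 5 fell (4.63% and 3.64% of all probes), with a median change of 0.10. Sgk1, a kinase induced by serum and glucocorticoids, rose 3.28-fold, from 13.03 to 13.92 (median 13.37) to 14.68 to 15.28 (median 15.09), with no overlap (log2 change 1.61, SE 0.15, limma adjusted p = 3.41e-05). Txnip, an arrestin-like brake on glucose uptake, rose 2.51-fold and the heat shock gene Hspa1a 2.03-fold. The nuclear receptor gene Nr4a2 fell by 1.88, the AP-1 subunit gene Fosl2 by 1.43 and Egr2 by 1.20 on the log2 scale, each with no overlap. Fos had a change of 0.03 and Atf3 of -0.11, and Jun was 1.31-fold higher. Of 45 matrix and adhesion genes 6 rose and 10 fell (4.63% and 3.64% of all probes), with a median change of -0.20. With slide as a random block 6 fell, with scan day 4, and without any 1 of P5 replicates 2 and 5 and P10 replicates 1, 2 and 3 6 fell. Among the changed genes were Adamts1, a matrix protease, 1.76-fold higher, and the fibronectin receptor chain Itga5 and the protease inhibitor Timp1 lower by 1.07 and 1.18 on the log2 scale.

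**Figure D2:**
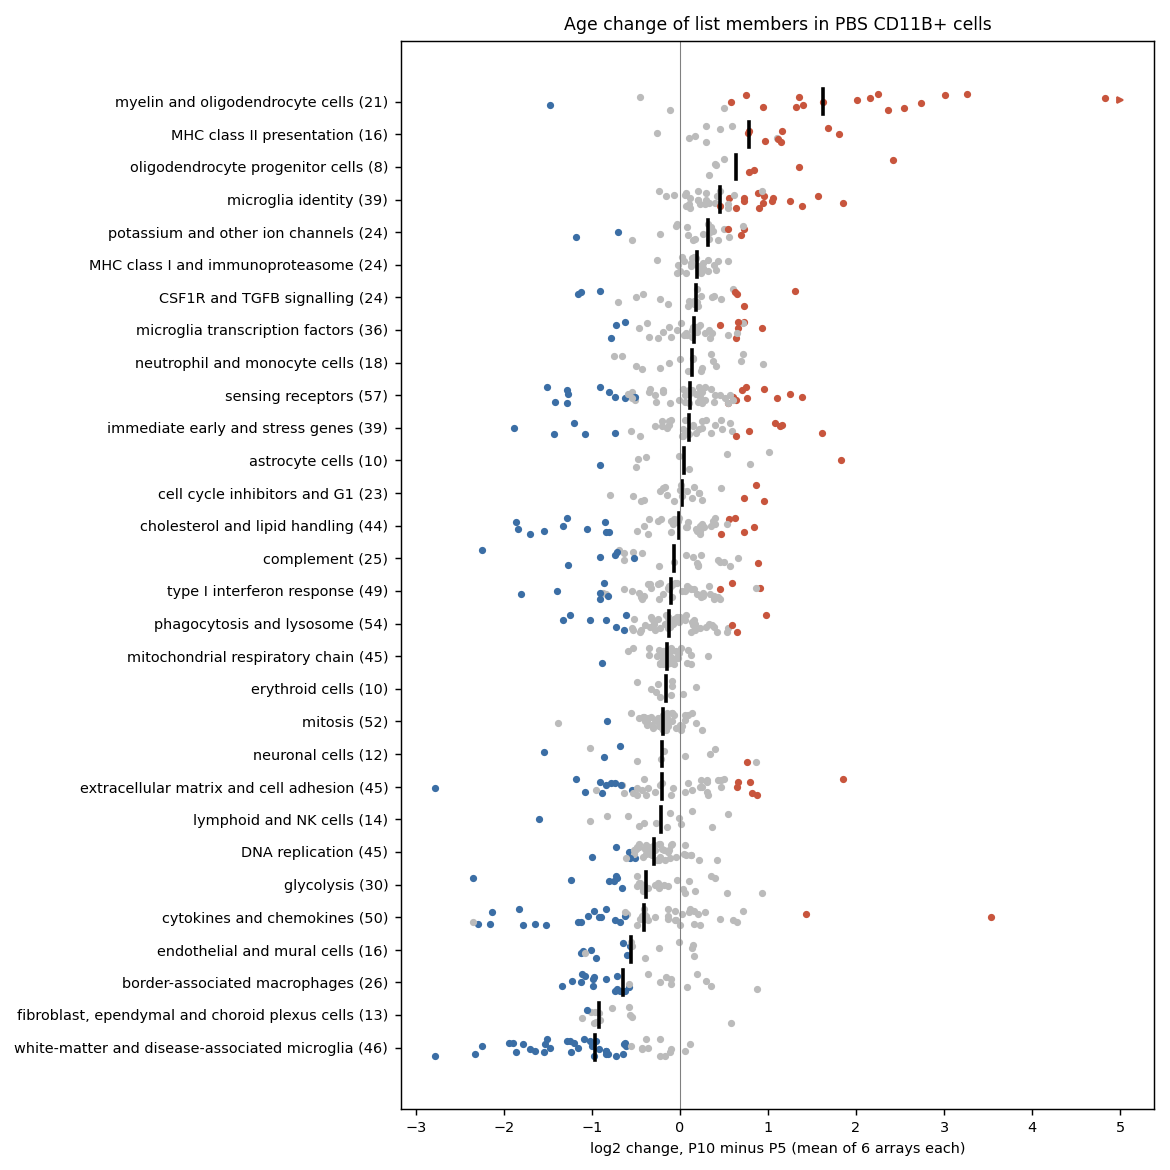
Log2 change from P5 to P10 of each member of each gene list in PBS CD11B+ cells (horizontal axis), 1 row of points per list. Red points were called higher, blue points called lower and grey points not called, the black bar is the median of a list, and the arrow at 5 stands for Mobp, whose change was 9.18. The white-matter and disease-associated list has 34 blue and 0 red points, the microglia identity list 15 red and 0 blue and the myelin list 17 red and 1 blue.

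Outside the lists, the largest changes among probes that were bright on all 12 arrays and did not overlap included genes of several kinds. Rab7b, a small GTPase of late endosomes, was at 13.52 to 13.77 (median 13.67) at P5 and 10.87 to 11.68 (median 11.07) at P10 and fell 6.05-fold (log2 change -2.51, SE 0.12, limma adjusted p = 1.54e-06). Slpi, a secreted inhibitor of leukocyte proteases, fell 6.72-fold, from 11.04 to 11.89 to 8.50 to 10.73. Gpr182, a scavenging receptor for chemokines, fell 7.22-fold, Wipf3, an actin regulator, 5.49-fold, Scml4, a Polycomb-related protein, 5.15-fold and Fam20c, a kinase of secreted proteins, 5.11-fold. Upwards, Col6a3, a collagen VI chain, rose 6.65-fold, from 7.64 to 8.67 (median 7.83) to 9.63 to 10.87 (median 10.56). Duoxa1, which matures dual oxidases, rose 7.20-fold, and Mlph (melanophilin), which links vesicles to myosin, 5.75-fold. Retnla, which is in the cytokine list, a secreted protein of alternatively activated macrophages and eosinophils, spread widely at P10, from 6.51 to 12.32 (median 8.57), against 4.85 to 5.95 at P5 (log2 change 3.54, SE 0.99, adjusted p = 0.0241). Its highest P10 value was that of replicate 6, and without both arrays that stood apart it rose by 2.83.

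Some genes were detected at 1 age only. Of the probes called higher, 11 were well above background on all P10 arrays and no P5 array, and of those called lower, 8 the other way round. The brightest at P10 were Mobp, a myelin protein, which was at least 154-fold higher, Tmem125 (at least 12.7-fold), Klrd1, the CD94 chain of a natural killer cell receptor (at least 7.73-fold), the kinase gene Sgk2 (at least 7.63-fold) and Enpp6, a choline phosphodiesterase of newly formed oligodendrocytes (at least 7.49-fold). Among the brightest at P5 were the homeobox gene Nkx6-3 (at least 4.22-fold lower at P10), the desmosomal gene Pkp2 (2.73-fold), the chemokine gene Cxcl3 (2.43-fold) and the aminopeptidase gene Enpep (2.16-fold), all as lower bounds.

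Markers of other cells moved between the ages, and their part in the results above was not tested. Myelin and oligodendrocyte genes had the largest median change of the lists, 1.63, with 17 of 21 higher and 1 lower, and 11 higher with scan day as a random block. The mean log2 signal of this list was 7.97 to 8.41 on the P5 arrays and 9.46 to 10.84 on the P10 arrays, and 18 of the 21 genes were well above background on all 12 arrays. Mag, an adhesion protein of myelin, was at 10.04 to 10.37 (median 10.07) at P5 and 11.60 to 13.38 (median 12.23) at P10, a rise of 4.48-fold (log2 change 2.25, SE 0.26, limma adjusted p = 0.000115). Cldn11, the claudin of myelin, rose 8.06-fold, Fa2h, an enzyme of myelin lipids, 6.77-fold, Cnp 2.40-fold and Mog 2.73-fold. Adamts4 (8.03-fold) and Nfasc (6.00-fold), which oligodendrocytes also express, were among the largest rises. Mbp, the myelin basic protein gene, has 3 probes that disagree: the brightest had a change of -0.11, while a dimmer one rose 14.7-fold. Aspa, an oligodendrocyte enzyme, went the other way and fell 2.88-fold, from 7.95 to 8.15 to 6.16 to 7.04.

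Of 8 progenitor genes 4 rose (2 with scan day as a random block), among them Gpr17 (2.47-fold) and Neu4 (4.77-fold). The probe of Neu4 was not well above background on every array. Pdgfra and Cspg4 overlapped between the ages, with changes of 0.33 and 0.40. Endothelial and mural genes were lower, with 7 of 16 called lower, 0 higher and a median of -0.56. With scan day as a random block 2 were lower, and without any 1 of P5 replicates 2, 4 and 6 and P10 replicate 1 4 were. Cdh5, the cadherin of vessels, was at 9.10 to 9.76 at P5 and 8.18 to 8.50 at P10 (log2 change -1.12, SE 0.13, limma adjusted p = 9.84e-05), and Cldn5 fell by 0.96. Of 10 astrocyte genes 1 rose (S100b, 4.21-fold; 3 rose without P5 replicate 5 or both arrays that stood apart) and 1 fell (Gja1, 1.77-fold; 0 without any 1 of P5 replicate 4 and P10 replicates 1 to 5), and Aqp4 and Gfap overlapped, with changes of 0.11 and -0.39. Of 12 neuronal genes 1 rose, Snap25 (1.73-fold), and 3 fell, Tubb3, Stmn2 and Rbfox3, against a count of 1 with slide as a random block and 0 with scan day. Neutrophil and monocyte genes had 0 of 18 called in either direction by limma with all arrays and 2 called lower without both that stood apart (median 0.14 and -0.28). Without P10 replicate 6 alone 3 were lower, and without any 1 of P10 replicates 1, 3 and 4 1 was higher. S100a8, a calprotectin chain of neutrophils, was at 12.34 to 13.75 at P5 and at 12.46 to 15.10 at P10, where the highest value is that of replicate 6. Of 14 lymphoid genes 1 fell, Ms4a1, which was well above background on only 2 P5 arrays and 0 P10 arrays. Without P10 replicate 6 2 fell, and without both arrays that stood apart 4, where the list mean of P10 replicate 6 was 6.78 against 4.90 to 5.35 on the other P10 arrays. Erythroid genes had 0 of 10 called by limma, and 3 of them were well above background on no array. Of 13 fibroblast, ependymal and choroid plexus genes 1 fell, 2 without P10 replicate 6 and 6 without both arrays, among them Col1a1 and Dcn.

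**Figure D3:**
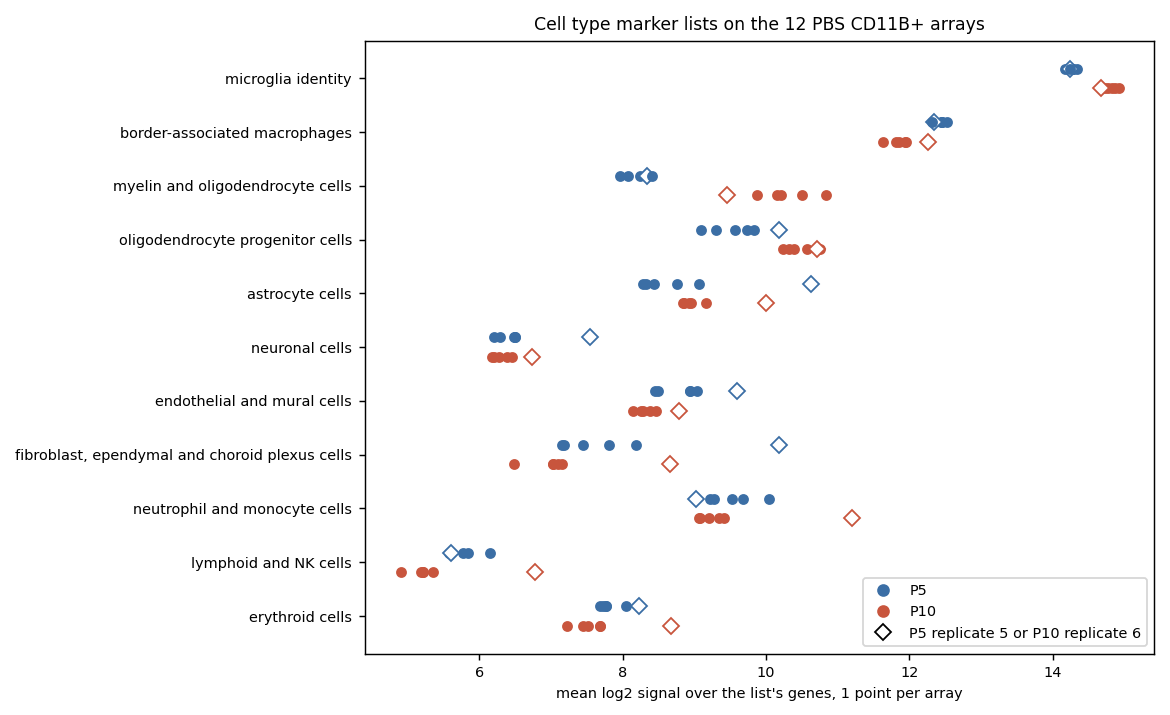
Mean log2 signal of each list of cell type markers on each of the 12 PBS CD11B+ arrays, by age. Diamonds are P5 replicate 5 and P10 replicate 6. The myelin list lies at 7.97 to 8.41 on the P5 arrays and at 9.46 to 10.84 on the P10 arrays, and the diamonds lie above the other arrays of their age for astrocyte (P5 10.63, P10 10.00) and fibroblast, ependymal and choroid plexus markers (P5 10.18, P10 8.66).

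Whether these changes also occurred in O4+ cells of PBS pups was asked with an interaction term over 24 arrays, normalized with all 48. The change from P5 to P10 differed between the sorted cells for 15665 probes (28.1%, limma, adjusted p under 0.05), of which 8035 (14.4% of all probes) were more positive in CD11B+ cells and 7630 (13.7%) more negative. With 75th percentile scaling the split was 5951 and 10682, and the median difference over all probes -0.23, against -0.01. With the deposited matrix values it was 6087 and 9362 and -0.19. The microglia identity list had a median change of -1.13 in O4+ cells against 0.45 in CD11B+ cells, and 33 of its 39 genes differed, all more positive in CD11B+ cells. Tmem119 had a change of -0.10 in O4+ cells (difference 1.56, SE 0.17, adjusted p = 2.76e-07) and P2ry12 of -1.06. For the white-matter and disease-associated list the medians were alike, -0.96 in both, and 26 of 46 genes differed, 14 of them more positive in CD11B+ cells. Mitosis genes had a median of -1.48 in O4+ cells, and 48 of 52 differed, 47 of them more positive in CD11B+ cells, Mki67 by 1.79.

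Single genes differed widely between the sorted cells. Among probes called in CD11B+ cells and well above background on all 24 arrays, the largest differences towards a more positive change included those of Col6a3 (2.68), Socs3 (2.63), Il1b (2.62) and Ccl3 (2.57). Il1b fell by 4.10 in O4+ cells and Socs3 by 1.23, opposite to its rise in CD11B+ cells. In the other direction stood Aspa (-5.90), Gas7 (-5.39), Wipf3 (-5.38) and Cemip2 (-4.59). Aspa rose by 4.45 in O4+ cells while it fell in CD11B+ cells. For Rab7b the change was 1.76 in O4+ cells against its fall in CD11B+ cells (difference -4.19, SE 0.15, limma adjusted p = 1.51e-14).

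After IL1B the change from P5 to P10 differed from that with PBS for 9388 probes (16.9%, limma interaction over 24 CD11B+ arrays, adjusted p under 0.05), of which 5875 (10.6% of all probes) were more positive with IL1B and 3513 (6.31%) more negative. With the deposited matrix values the split was 6542 and 1382, and the median difference over all probes 0.14. P5 cells were taken within hours of an IL1B injection and P10 cells days after the last. A difference here does not tell at which age the arms part, and response to the injection and age cannot be told apart. The microglia identity list rose with a similar median, 0.52 against 0.45, and 11 of its 39 genes differed. For Tmem119 the change was 1.61 with IL1B and 1.57 with PBS (difference 0.05, SE 0.11, adjusted p = 0.815), and for Selplg 2.05 and 1.85. Proliferation genes differed in nearly all members. DNA replication genes had a median change of 0.61 with IL1B against -0.29, and 42 of 45 differed, 41 of them more positive with IL1B. Mitosis genes had a median of 0.70 against -0.19, and 44 of 52 differed, all more positive. Mcm6 had a change of 1.09 with IL1B (difference 1.33, SE 0.10, adjusted p = 2.44e-08) and Mki67 of 0.91.

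The fall of the white-matter and disease-associated genes was smaller with IL1B, with a median of -0.34 against -0.96, and 32 of 46 differed, 26 of them more positive with IL1B. Itgax had a change of -0.14 with IL1B (difference 2.11, SE 0.34, limma adjusted p = 0.000149), Lpl of -0.15 and Gpnmb of 0.42. Border-associated genes had a median of -0.44 against -0.65, and 10 of 26 differed, 7 of them more positive with IL1B. Pf4 differed by 0.44 and Ccl24 by 0.71 (limma adjusted p = 0.00298 and 0.0187). Lyve1 changed by -1.39 and -1.34 (difference -0.04, adjusted p = 0.845). MHC class II genes had a median of 0.33 against 0.78, and 5 of 16 differed, 0 of them more positive with IL1B. H2-DMb1 had a change of 0.13 with IL1B (difference -1.55, adjusted p = 0.000892). Socs3 differed by -1.81, with a change of -0.38 after IL1B. Among probes called with PBS and well above background on all 24 arrays, the largest differences were those of Wipf3 (3.00), Tescl (2.98), Lef1 (2.70), Gpr182 (2.66) and a probe of Hpse (2.35) in the positive direction and of 1700047M11Rik (-3.48), Il1r2 (-3.29), Asprv1 (-3.24), Ch25h (-3.02) and C5ar2 (-3.01) in the negative one. Il1r2, the decoy receptor of interleukin 1, fell by 4.64 with IL1B and by 1.35 with PBS. Neutrophil and monocyte markers moved with these differences: their median change was -2.29 with IL1B against 0.14 with PBS, 12 of 18 differed, all more negative with IL1B, and their part in the other differences was not tested.

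**Figure D4:**
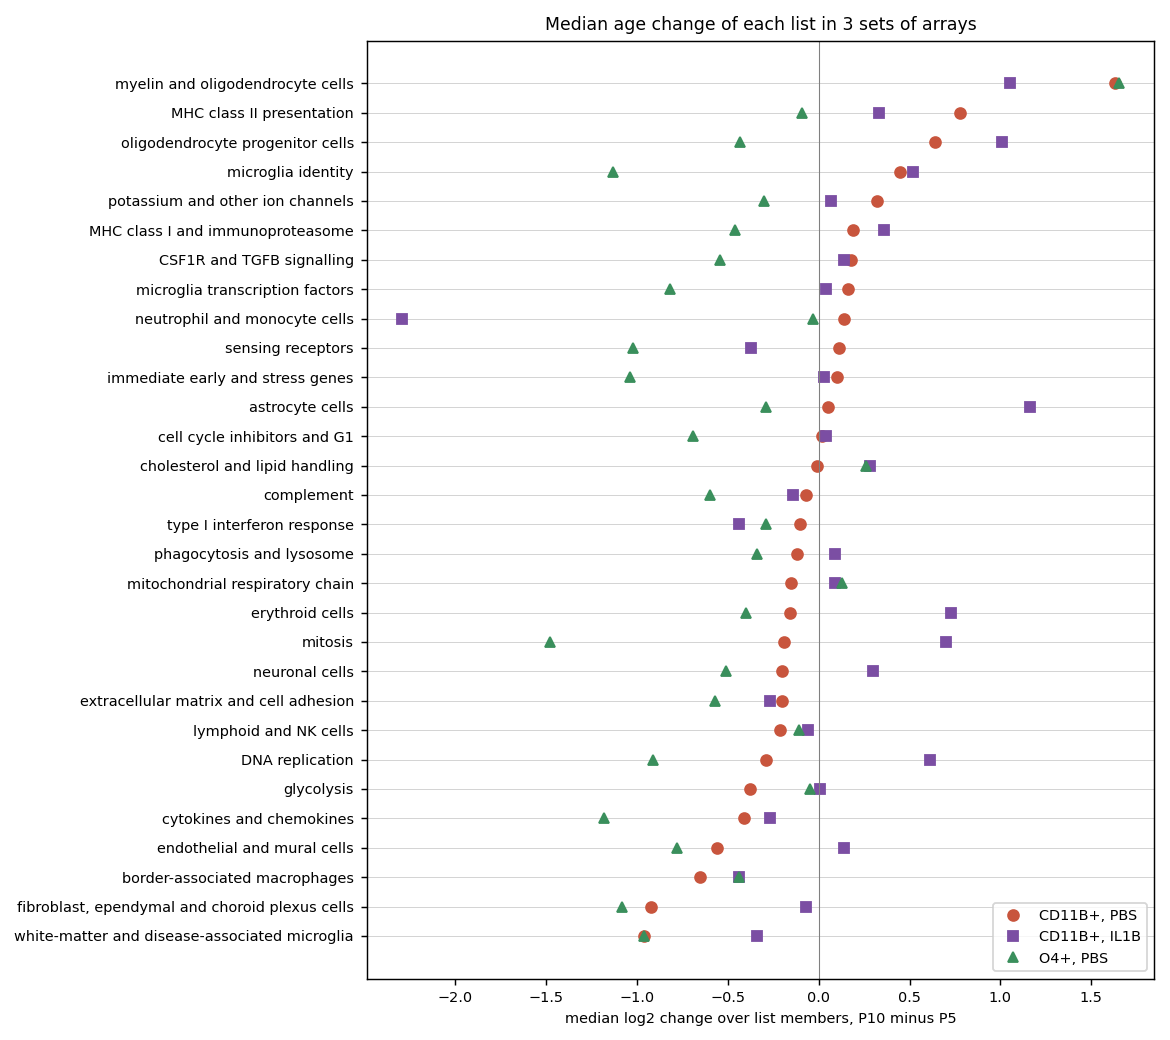
Median log2 change from P5 to P10 over the members of each list (horizontal axis) in CD11B+ cells with PBS (circles), CD11B+ cells with IL1B (squares) and O4+ cells with PBS (triangles). Microglia identity lies at 0.45, 0.52 and -1.13, DNA replication at -0.29, 0.61 and -0.91, and the white-matter and disease-associated list at -0.96, -0.34 and -0.96.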

How the data were processed

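RNA of sorted cells was hybridised to 1-colour Agilent arrays, and the authors deposited scanner output with a background-subtracted intensity for each spot (Agilent Feature Extraction 10.7.3.1, per the file headers) and a matrix of processed values. The matrix values, deposited as a ratio, equal that intensity over the median of the array (largest deviation 1.86e-05 on the log2 scale) and served as an alternative. The intensity was taken to log2 and quantile-normalized over the 24 CD11B+ arrays, or over all 48 where sorted cells were compared. Spots of a probe were averaged, 278 non-uniform and 5097 population outlier spots on 48 arrays were left out, no spot was saturated, and no filter on dim probes was set. Of 55681 probes, 31381 have a gene symbol, through RefSeq accessions, symbols or synonyms. The other 24300 kept the name given in the file. A gene in a list is represented by its brightest probe. Some genes are in more than 1 list and count in each. Itgax, for example, is in the white-matter and disease-associated list and in the complement list, and Clec7a in the former and among the sensing receptors.

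Groups were taken from the labels. Age was tested over the 12 arrays with lmFit and eBayes (limma 3.58.1 and the data.table package, version 1.17.8, in R 4.3.3) and Benjamini-Hochberg adjustment over all probes, and differences between age changes with an interaction term. The procedure was tested on simulated data. A probe not well above background on any array of an age gives a lower bound of the fold. The members and gene lists were chosen with earlier results of these data known. Genes were named by rule: the 10 largest rises and falls among separated probes above background on all 12 arrays, the 5 brightest of those detected at 1 age in each direction, the key members and the 3 largest rises and falls of each list, and the 5 largest differences in each direction of each interaction. Some genes that this rule names are not reported here. Sequences are the first window listed for a gene in RefSeq (GRCm38.p6). Alternatives were 75th percentile scaling, normexp background correction (offset 50), the matrix values, a filter on dim probes, slide or scan day as a random block, the arrays normalized together, the equal-variance test of the methods, the fold rule, the replicate number as a block, and leaving out arrays.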

Additional observations from a re-analysis of the deposited data

Results flagged for a closer look

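An array was picked out where its gap to the nearest of the other 5 arrays of its age, as a share of the whole range of the 6, was above Dixon's critical value, which chance gives in about 1 in 20 groups. Of 60 list means 13 were above it, and of 390 values of named genes 53. P10 replicate 6 gave 7 of the list means and 25 of the gene values, and P5 replicate 5 gave 6 and 17. The lists in which P5 replicate 5 was the highest P5 array, with that share, were CSF1R and TGFB signalling (0.742), complement (0.812), mitochondrial respiratory chain (0.711), astrocyte cells (0.669), neuronal cells (0.780) and fibroblast (with ependymal and choroid plexus) cells (0.659). Those in which P10 replicate 6 was the highest P10 array were MHC class I and immunoproteasome (0.784), complement (0.702), astrocyte cells (0.727), neutrophil and monocyte cells (0.840), lymphoid and NK cells (0.760), erythroid cells (0.685) and fibroblast (with ependymal and choroid plexus) cells (0.692).

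Among single genes, P10 replicate 6 was the highest P10 array for Slpi (0.673), Hpse (0.660), Cxcl1 (0.687), Itgax (0.758), Scml4 (0.753), Cxcl3 (0.834), Enpep (0.943), Clec7a (0.743), H2-Ab1 (0.675), Cd74 (0.725), H2-K1 (0.801), H2-D1 (0.729), B2m (0.701), C3 (0.818), Axl (0.733), Fabp5 (0.907), Aqp4 (0.759), Gfap (0.673), S100a8 (0.844), Col1a1 (0.761), Dcn (0.673) and Hpse (0.818), where Hpse has a pair of probes. It was the lowest for Mef2a (0.812), Tfec (0.737) and Pmepa1 (0.679). P5 replicate 5 was the highest P5 array for Tgfb1 (0.867), Cd68 (0.724), Hmgcs1 (0.671), Mag (0.679), Cnp (0.713), S100b (0.688), Gja1 (0.659), Stmn2 (0.744), Rbfox3 (0.680) and Tubb3 (0.758) and the lowest for P2rx4 (0.725), Tlr3 (0.780), Mcm3 (0.693), Orc1 (0.778), Ccl3 (0.757), Mertk (0.636) and Ppargc1b (0.690). Another P5 array stood out for Mobp (0.976), Klrd1 (0.682), Sgk2 (0.736), Nkx6-3 (0.665) and Ifit1 (0.659), and another P10 array for Cx3cr1 (0.631), Csf1r (0.648), Tgfb1 (0.747), Mrc1 (0.694), Lpcat2 (0.703) and Egln3 (0.653). The white-matter and disease-associated genes Spp1, Itgax, Hpse, Fabp5 and Clec7a were called lower with both arrays and without them.

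Age changes that differed by the interaction test of limma numbered 15665 probes between CD11B+ and O4+ cells and 9388 between IL1B and PBS. The named genes with such a difference, on the log2 scale, were Col6a3 (2.68), Socs3 (2.63), Il1b (2.62), Ccl3 (2.57), Aspa (-5.90), Gas7 (-5.39), Wipf3 (-5.38) and Cemip2 (-4.59) for CD11B+ minus O4+ cells. For IL1B minus PBS they were Wipf3 (3.00), Tescl (2.98), Lef1 (2.70), Gpr182 (2.66), Hpse (2.35), 1700047M11Rik (-3.48), Il1r2 (-3.29), Asprv1 (-3.24), Ch25h (-3.02) and C5ar2 (-3.01).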

How the results depend on the processing

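The counts of probes called from P5 to P10 (2576 higher and 2025 lower) stayed within 1.5 times under the alternatives run, except for normexp background correction (1155 and 963), scan day as a random block (1364 and 898) and no fold threshold (6661 and 5181). Slide as a random block gave 1935 and 1396. Leaving out 1 array at a time gave 2311 to 2873 probes higher and 1752 to 2383 lower, and 14875 to 17253 and 8155 to 10269 probes that differed between sorted cells and with IL1B. With 75th percentile scaling 50% of the calls were higher, against 56%. The median change of the immediate early and stress genes was -0.01 with that scaling, against 0.10, while the median of all probes was -0.03 against 0, and the cause was not tested. The share of differences that were more positive went from 51.3% to 35.8% with 75th percentile scaling and to 39.4% with the matrix values between sorted cells, and from 62.6% to 82.6% with the matrix values for IL1B. Replicate numbers do not pair the ages: deviations of same-numbered P5 and P10 arrays correlated at -0.20 to 0.39, and 1 of 6 arrays correlated best with its own number. O4+ and CD11B+ cells came from the same animals according to the methods, which do not say that the numbers match. Their same-numbered arrays correlated at 0.05 to 0.36 at P5 (5 of 6 best with their own number) and at -0.04 to 0.33 at P10 (4 of 6). With the replicate block 2434 probes were higher and 1902 lower, and 8536 and 8154 (sorted cells) and 5888 and 3629 (IL1B) differed. The number of arrays limits the precision. Not all probes were called for Scml4 (another probe at -0.26), Nkx6-3 (-0.11), Pfkp (-0.40), Ifi204 (-0.65), Tgfb2 (-0.73), P2rx7 (0.48), Duoxa1 (-0.01), Rbfox3 and Cdkn2a.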

Other observations

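Most genes of a set for eosinophils rose in the PBS CD11B+ cells. This set and the other sets of this section were put together after the values had been seen, so no test bears on them. For the same reason the shares of all probes cannot serve as a comparison for their counts. Of 10 eosinophil genes 7 were called higher and 0 lower, where 4.63% of all probes were called higher, with a median change of 1.45. Il7r and Retnla are among the 7. Ear2, Il5ra (log2 change 0.17) and Gata1, which was well above background on no array, were not called. The granule protein gene Prg2 rose by 2.39, Epx, another granule protein gene that was well above background on 2 P5 and 5 P10 arrays, by 2.36, the eotaxin receptor gene Ccr3 by 1.45 and Siglecf, a lectin of eosinophils, by 0.85 on the log2 scale. Siglecf was at 11.21 to 11.66 at P5 and at 12.12 or more on every P10 array.

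Of 20 imprinted genes 9 fell and 0 rose (median change -0.55), where 3.64% of all probes were called lower, among them H19, Mest, Plagl1, Igf2 and Dlk1. H19, a long noncoding RNA of fetal tissues, was at 10.23 to 11.12 (median 10.38) at P5 and had a median of 8.64 at P10. Of 16 genes known to be induced by low oxygen 9 fell and 1 rose (median change -0.68), against the same 3.64% of all probes. Pdk4, which holds back the oxidation of pyruvate, fell by 2.17, Ak4 by 1.66, Angptl4 by 1.55, and Hilpda, a lipid droplet protein, by 1.46 on the log2 scale, while P4ha1, a collagen hydroxylase, rose by 0.58.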
